A study of Hydra viridissima with 4 samples.

Results

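Broad open regions are stretches of the Hydra viridissima genome in which accessible sites of 4 libraries joined into an interval of 800 bp or more, with a peak from every library. Peaks of the 4 deposited lists were merged wherever they shared at least 1 bp, which gave 117973 merged regions. The broad regions were chosen by 2 measured values, a peak in all 4 lists and a merged width of at least 800 bp. They number 1154, which is 11.3% of the 10256 regions shared by all 4 lists and 0.978% of all merged regions. Presence and width are therefore the rule, and their values are given below as a description. The name holds only in part, since 403 of the 1154 had no single peak of 800 bp in any list and 13 had such a peak in every list. In what follows a broad region is the merged interval, which need not be open along its whole length in each library.

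In ATAC-seq the transposase Tn5 inserts sequencing adapters where DNA is not wrapped around nucleosomes, so a pile of fragments marks open chromatin. A narrow peak is the usual picture at an isolated regulatory element, where a few bound proteins keep a nucleosome away. Wider open stretches are known from active promoters, from clusters of neighbouring enhancers and from other loci where several nucleosomes are displaced or mobile. A single wide interval can also be the sum of several nearby elements, and the number and position of summits inside it describe how it is built. Green hydra houses unicellular algae inside the epithelial cells that line its gut, and animals that have lost these algae are called aposymbiotic.

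The 4 libraries came from clone 2 of the species, so 1 clone stands for it. Aposymbiotic clone 2 and green/symbiotic clone 2 were each represented by 2 libraries that the labels call biological replicates. Each library was made from 50 large animals, all without buds or gonads, so a value is that of a pool. The symbiont is the only stated difference between the groups, and how the algae were removed is not given in the labels. All animals were fed brine shrimp and kept in filtered medium with Pen/Strep (penicillin and streptomycin). The source was the whole organism, and a change in the share of a cell type cannot be told apart from a change in accessibility within a cell type. The lists hold no cell type markers. Genome build and gene models are not given in the material used here, so regions are named by scaffold and by first and last base, counted from 1.

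The 4 lists were of unlike length. Replicate 1 had 21481 aposymbiotic and 31072 symbiotic peaks, and replicate 2 had 78594 and 87128. The genome-wide background recovered from the deposited values was 9.39 and 6.8 tags in replicate 1 and 16.69 and 13.46 tags in replicate 2, where a tag is a piled-up fragment or read. The peak names carry date-like marks that differ between all 4 libraries and whose meaning is not stated, so whatever they mark cannot be told apart from the condition. Where 4 values follow each other below, the first pair is replicate 1 and the second pair replicate 2, each with the aposymbiotic list before the symbiotic one.

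The merged width of the broad regions ran from 800 to 2939 bp, with quartiles of 867, 968 and 1136 bp. Most lay close to the threshold, as 389 were under 900 bp, 511 reached 1000 bp and 82 reached 1500 bp. The 9102 narrower shared regions had a median width of 377 bp. Broad regions together spanned 1215.7 kb, or 25% of the width of all shared regions. Of the 1679 merged regions of at least 800 bp, 68.7% were present in all 4 lists. The 525 that were not were mostly missing from replicate 1 lists, since 292 lacked only a peak of aposymbiotic replicate 1, 119 lacked only a peak of symbiotic replicate 1, and 102 had peaks in the replicate 2 lists alone.

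The threshold cut through a continuous range of widths. The members just inside it, each 800 bp wide, were on scaffold 4 (6540977 to 6541776), scaffold 6 (12381551 to 12382350) and scaffold 7 (6669324 to 6670123). The fold enrichment of their strongest summits, which is the authors' ratio of the pileup at a summit to its background, ranged from 2.09 to 4.63 over the 4 lists. The shared regions just outside, each 799 bp wide, were on scaffold 9 (8201609 to 8202407), scaffold 10 (12352214 to 12353012) and scaffold 12 (8264821 to 8265619). Their folds ranged from 1.93 to 5.99, so the ranges on both sides of the threshold overlapped.

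The widest open stretch seen the same way in every library was on scaffold 10 (8938424 to 8940945). It was a single unbroken peak of 2496, 2483, 2518 and 2510 bp in the 4 lists. Its starts lay within 13 bp and its ends within 26 bp of each other, and 2483 of its 2522 bp were under a peak in all 4 lists. Inside it the lists held 13, 15, 16 and 14 summits. The strongest summits reached folds of 4.73, 4.94, 4.95 and 5.36, and the weakest 3.58, 3.17, 3.33 and 2.54. The region was thus a plateau with no summit that dominated it, and the strongest summit lay 760, 77, 264 and 79 bp from its start. The region held 6 summit places found in all 4 lists, the highest number among the broad regions. Such a place is a summit, in the list with the fewest summits, that has one of every other list within 50 bp.

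The region with the largest merged width, on scaffold 12 (4740223 to 4743161), was built differently. Its 2939 bp were covered by 5, 5, 3 and 3 separate peaks, of which the longest measured 609, 408, 1809 and 1052 bp. Peaks covered 1395, 1451, 2464 and 2666 bp, so the replicate 2 lists filled most of a stretch that the replicate 1 lists held in fragments. All 4 lists had a peak over 644 bp of it. The folds of the strongest summits were 3.00, 4.00, 3.87 and 3.75, and these summits lay 894, 293, 141 and 748 bp from the start, at a different place in each list.

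Most of the other 6 among the 8 widest members were also filled mainly by the replicate 2 lists. The region on scaffold 3 (3056176 to 3058965), 2790 bp wide, had peaks over 611, 400, 2273 and 2689 bp. The region on scaffold 8 (18034446 to 18037116), 2671 bp wide, had peaks over 1086, 1182, 2357 and 2569 bp. On scaffold 11 (10758447 to 10760749), a region of 2303 bp, no base was under a peak in all 4 lists although each list held between 2 and 4 peaks in it. The remaining ones were on scaffold 8 (2214646 to 2216925), scaffold 2 (15890998 to 15893212) and scaffold 9 (4518680 to 4520727). The last was an exception, with 1037, 872, 1015 and 1992 bp under peaks, since only symbiotic replicate 2 filled it. Over all 8 widest members folds ranged from 2.29 to 5.36, so none of them approached the highest folds described below.

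**Figure D1:**
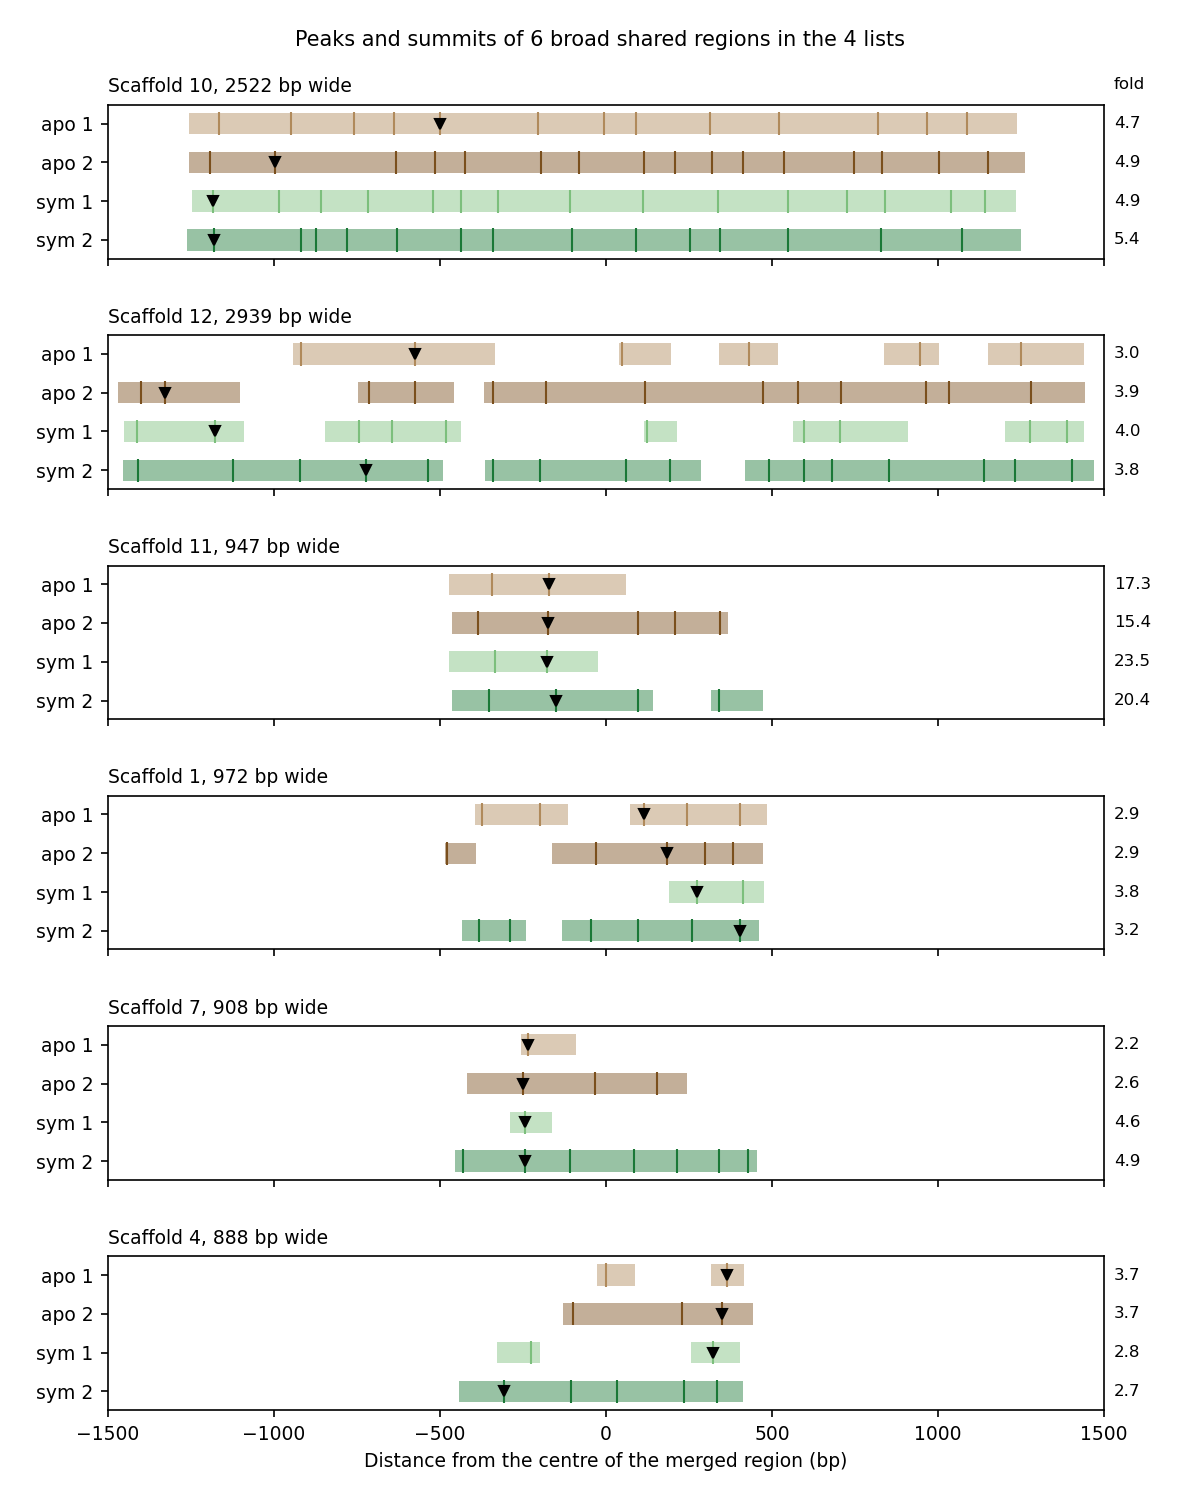
Peaks (boxes), summits (vertical ticks) and the strongest summit (black triangle) in 6 broad regions, drawn against the distance in bp from the centre of the merged region; apo and sym stand for aposymbiotic and symbiotic, 1 and 2 for the replicate, and the number at the right is the fold of the strongest summit. From the top they are the unbroken region of 2522 bp, the widest of 2939 bp, the strongest of 947 bp, a typical one of 972 bp, and those with the largest gap in rank in favour of symbiotic (908 bp) and aposymbiotic (888 bp) animals; the top region is 1 peak with the same ends in every list, and the others are partly covered by at least 1 list.

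Most broad regions resembled the fragmented picture rather than the unbroken one. A single peak of at least 800 bp was present in 62, 37, 318 and 560 of the 1154 members, and in at least 1 list of both conditions in 165. In the 403 members without such a peak the width arose only from the merging of shifted or neighbouring peaks. The outer start was set by symbiotic replicate 2 in 538 members and by aposymbiotic replicate 2 in 439, against 93 and 84 for the replicate 1 lists in the order aposymbiotic and symbiotic. Width is thus mainly a property of the replicate 2 lists, which are the longer ones, and part of it is lost when symbiotic replicate 2 is left out, as 552 regions then remained.

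The base pairs under a peak in all 4 lists, here called the core, made up a small part of the merged width. They were summed over a region and need not form 1 stretch. The median core was 138 bp, or 13.9% of the merged width, against 117 bp and 36.9% in the narrower shared regions. Summed over all members, 18.7% of the width was under a peak in all 4 lists, 24.7% in 3, 31.0% in 2 and 25.6% in 1. In 213 of the 1154 members no base was covered by all 4 lists, against 822 of the 9102 narrower shared regions. The cores of broad and narrower regions were therefore of similar length in bp, and the difference lay in bases covered by fewer lists. Where in a region these bases lay was not measured.

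The share of a broad region that was under peaks had a median of 34.2%, 38.0%, 77.3% and 86.9% in the 4 lists. For narrower shared regions it was 61.8%, 56.1%, 84.1% and 83.3%. Symbiotic replicate 2 thus covered a slightly larger part of broad than of narrower regions, and the other 3 lists a smaller part. Since the lists that set the width also fill it by construction, these shares describe the rule as much as the chromatin. First to last peak spanned at least 800 bp in 219, 252, 752 and 857 members, and in every list in 108.

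A handful of members had the same ends in every library. A single peak per list was found in 145 of the 1154 members, against 7431 of the 9102 narrower shared regions. In the 145 members the starts of the 4 peaks lay a median of 341 bp apart and the ends 325 bp apart. Both ends fell within 50 bp in 4 of the 145 and within 100 bp in 8. The 4 are named here after their values were seen. Besides the region on scaffold 10 described above they were on scaffold 7 (12285965 to 12287071), scaffold 2 (2134644 to 2135549) and scaffold 3 (17590586 to 17591431). On scaffold 7 the single peak measured 1096, 1107, 1077 and 1079 bp, with folds of 4.37, 4.95, 3.64 and 5.49. The peak on scaffold 2 measured 830, 827, 906 and 868 bp, with folds of 5.97, 4.48, 5.03 and 5.19. On scaffold 7 both symbiotic folds were above both aposymbiotic ones, while the ranks of 80.1, 79.2, 68.0 and 86.9 among shared regions overlapped. On scaffold 2 the folds of the conditions overlapped.

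**Figure D2:**
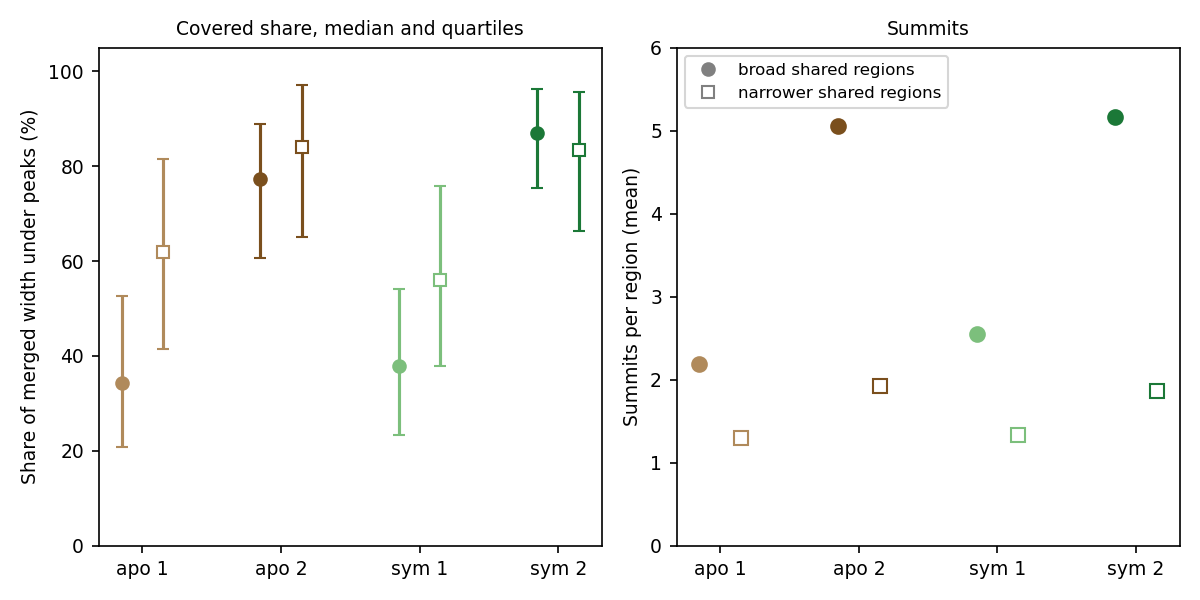
Left, share of the merged width under peaks in percent (median, with bars from the lower to the upper quartile over regions); right, mean number of summits per region, for 1154 broad (filled circles) and 9102 narrower (open squares) shared regions in each list. Broad regions were covered to 34.2% and 38.0% in the replicate 1 lists and to 77.3% and 86.9% in the replicate 2 lists, and held 2.19 and 2.55 against 5.06 and 5.16 summits.

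Broad regions held several summits. The mean number per region was 2.19, 2.55, 5.06 and 5.16, against 1.29, 1.33, 1.93 and 1.87 in narrower shared regions, and the highest was 13, 15, 17 and 17. Per kb under peaks the counts were close, with 5.38, 6.03, 6.50 and 5.84 summits in broad and 5.65, 6.24, 6.25 and 5.92 in narrower regions. A longer open stretch thus held more summits at about the same density. These summits made up 9.84%, 8.05%, 5.27% and 4.73% of all summits of the lists.

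Neighbouring summits of a peak lay at similar distances in wide and narrow regions. The median distance was 155, 141, 135 and 153 bp in broad regions and 144, 131, 132 and 141 bp in narrower ones. Between 84.3% and 91.6% of the distances in broad regions were 50 to 250 bp. In every list the median was somewhat longer in broad regions, and the quartiles of both classes overlapped.

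**Figure D3:**
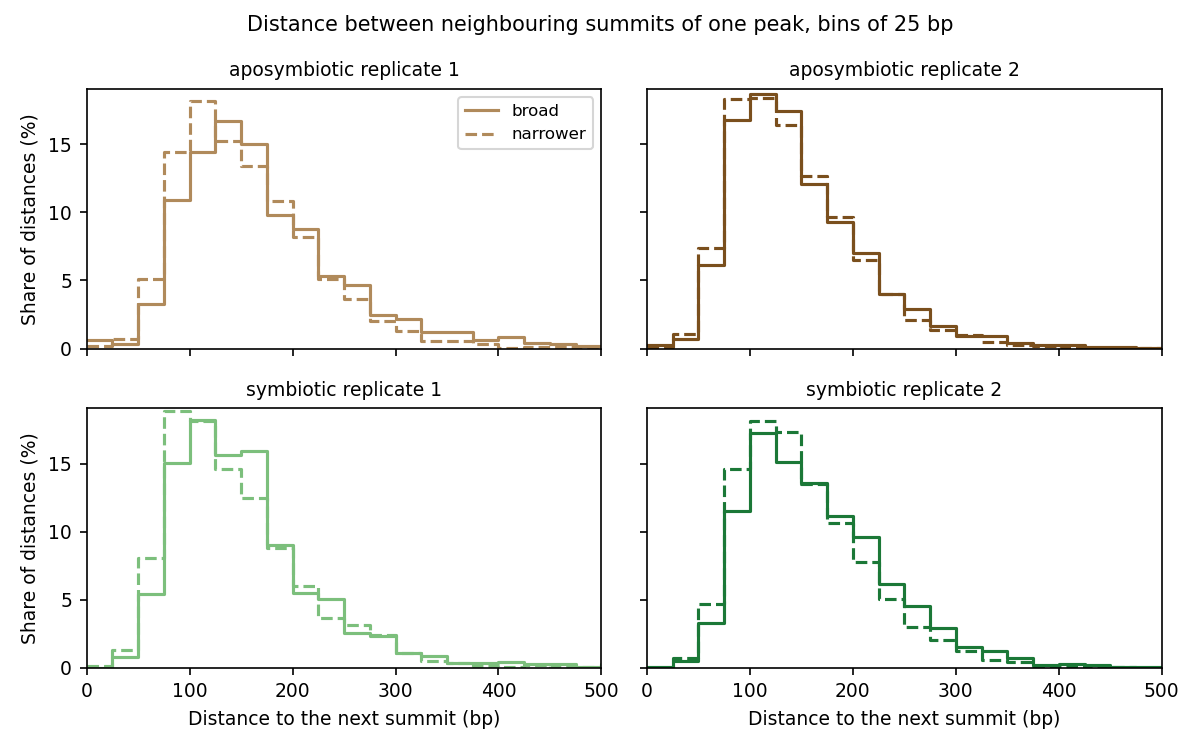
Share of distances between neighbouring summits of a peak (percent, vertical) against the distance (bp, horizontal, bins of 25 bp) in each list, for broad (solid) and narrower (dashed) shared regions. In every list the curves of both classes rise steeply near 75 to 100 bp and have medians between 131 and 155 bp.

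No summit stood out in most broad regions. Among members with several summits, the fold of the strongest exceeded that of the next by a median factor of 1.15, 1.14, 1.12 and 1.14. In narrower shared regions with several summits these factors were 1.18, 1.19, 1.20 and 1.23. A strongest summit at least 1.5 times above the next was found in 81, 98, 114 and 141 of the 706, 833, 1130 and 1145 broad regions with several summits. In narrower regions it was found in 423, 480, 1223 and 1157 of 2175, 2376, 5126 and 4797. Broad regions were thus flatter than narrower ones in all 4 lists. The margin was small in the median factor and clearer in the share with such a summit. A region with more summits has closer leading values by construction. Only 37.4%, 37.9%, 37.4% and 38.0% of the strongest summits lay in the middle one of 3 equal parts of the region, against 48.9% to 50.9% in narrower regions.

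The position of the strongest summit changed from list to list. It lay within 50 bp in all 4 lists in 145 of the 1154 broad regions, or 12.6%, where the share was 37.3% over all shared regions and 40.4% over the narrower ones. The broad share was 7.02% within 25 bp, and 19.1% over the other 3 lists when aposymbiotic replicate 1 was left out. Broad and narrower regions were not compared at equal width here. Between pairs of lists, 28.8% to 36.2% of broad regions had the strongest summit at the same place, the lowest between the replicate 1 libraries and the highest between the symbiotic libraries. Over all shared regions these pairs were also the lowest, at 57.3%, and the highest, at 63.8%. Where a summit dominated, its place was more often shared. Of the 81, 98, 114 and 141 members with a ratio of at least 1.5, the strongest summit was at the same place in all 4 lists in 66.7%, 59.2%, 67.5% and 59.6%. Of members in which the 2 strongest summits differed by a factor under 1.1, it was 2.82%, 3.5%, 3.02% and 2.84%. Narrower shared regions gave 75.2%, 67.5%, 73.4% and 60.5% with a dominant summit and 12.8%, 9.28%, 9.05% and 8.25% without. In both classes the leading position thus moved less where a summit dominated than in flat regions. The split and the leading position use the same folds, and the lead passes between near-equal summits with a small change in fold. Part of this difference is therefore given by construction.

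Few regions moved their strongest summit with the condition. In 19 members (1.65%) it lay at the same place within each condition and over 200 bp apart between conditions, where the share over all shared regions was 0.556%. In 18 members (1.56%, against 0.624%) it did so by replicate number. The counts by condition and by number were thus nearly equal.

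Summit places common to all 4 lists were absent in 646 members, numbered 1 in 395, 2 in 95 and at least 3 in 18. Among the 9102 narrower shared regions the same counts were 3957, 4907, 229 and 9. The members with the most places, besides the region on scaffold 10 with 6, had 4 each. They were on scaffold 1 (27873746 to 27875038), scaffold 5 (16361510 to 16363441), scaffold 9 (13351513 to 13352956) and scaffold 10 (13107916 to 13109699). On scaffold 1 the lists had 7, 7, 7 and 7 summits in 1293 bp, with folds of 4.35, 4.19, 4.61 and 5.996. It was the only one of these 5 in which every list held the same number of summits. Folds over the 5 regions were 3.69 to 5.996, all above the medians given next, and their width ranged from 1293 to 2522 bp. A median of 46.7% and 48.2% of the width of broad regions lay within 50 bp of a summit in the replicate 2 lists, and 19.3% and 22.2% in the replicate 1 lists.

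Breadth did not go with height. The fold of the strongest summit had a median of 2.88, 3.37, 2.91 and 3.64 in broad regions and of 2.99, 3.52, 3.05 and 3.46 in narrower shared regions. In recovered tags at that summit, the medians were 31, 29, 56 and 59 in broad and 35, 30, 62 and 57 in narrower regions. The broad regions thus lay slightly below the narrower ones in 3 lists and slightly above in symbiotic replicate 2. Within the whole lists the strongest summits of broad regions had median percentiles of fold of 63.7, 72.4, 87.4 and 91.3. Narrower shared regions had 69.9, 76.7, 89.7 and 88.9, so this standing was not particular to broad regions. A region's value is the highest of its peaks and is set against single peaks, which favours regions with several peaks.

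Among the 10256 shared regions, the median rank of the broad ones, as a percentile of fold within a list, was 44.5, 45.8, 45.8 and 55.5. Only symbiotic replicate 2, the list that set more outer starts and ends than any other, placed them above the middle. Ranks of 90 or more were reached by 5.98%, 6.15%, 6.24% and 6.93% of the broad regions and by 10.4% to 10.5% of the narrower ones. Across the 10256 shared regions, the logarithm of width and of mean fold had a Pearson r of -0.0615, and across the broad ones 0.0257, both given as descriptions of regions that share the same libraries.

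**Figure D4:**
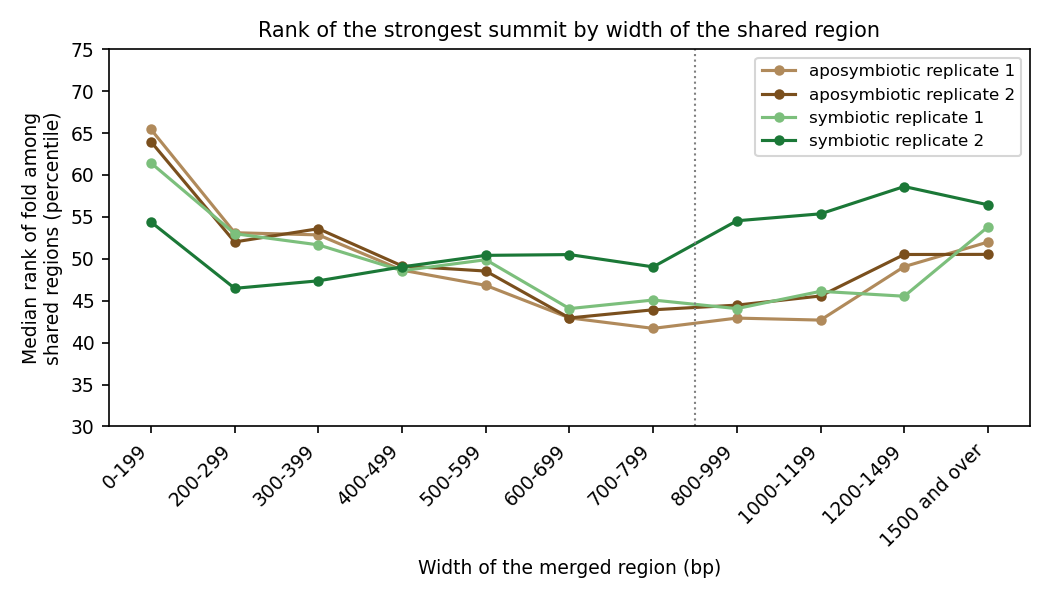
Median rank of the strongest summit's fold among the 10256 shared regions (percentile within a list, vertical axis from 30 to 75) in bins of merged width (bp, horizontal), 1 line per list; the dotted line marks 800 bp. Ranks are lower at 600 to 799 bp than in the narrowest bin in all 4 lists, and symbiotic replicate 2 lies above the other lists in every bin from 500 bp.

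The member with the highest lowest percentile of fold was on scaffold 11 (10047651 to 10048597). Its 947 bp reached folds of 17.3, 23.5, 15.4 and 20.4, from 202, 219, 290 and 331 tags. The folds of symbiotic libraries were above those of aposymbiotic libraries, as the medians over broad regions also were, and the rank among shared regions was above 99.9 in all 4 lists. Its strongest summit lay 302, 296, 298 and 323 bp from the start, so the peak stood at the same place in every list and the width came from lower summits to its right in the replicate 2 lists.

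The second, on scaffold 3 (17590586 to 17591431), was also one of the 4 regions with the same ends. Its single peak measured 815, 842, 811 and 810 bp, with folds of 11.5, 18.6, 13.5 and 16.8 and its strongest summit 455, 454, 445 and 450 bp from the start. Both symbiotic folds were again above both aposymbiotic folds, and the ranks among shared regions were 99.8, 99.9, 99.9 and 99.9. The others were on scaffold 6 (17913791 to 17914600) and 6 (13001689 to 13002701), scaffold 10 (14534483 to 14535315), scaffold 7 (10646720 to 10647711), scaffold 5 (2701518 to 2702639) and scaffold 14 (7049677 to 7050507). Across the 8 the folds were 7.14 to 23.5 and the widths 810 to 1122 bp.

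A typical member, nearest to the median width and fold, was on scaffold 1 (16441718 to 16442689). Its 972 bp held 2, 1, 2 and 2 peaks with 5, 2, 5 and 6 summits. The folds were 2.88, 3.80, 2.87 and 3.23. The strongest summit lay 599, 759, 671 and 890 bp from the start, and 271 bp were under a peak in all lists.

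Broad regions were spread over the genome. The 14 scaffolds with at least 1000 merged regions held 1150 of them. On these 14 they made up between 9.18% of shared regions (scaffold 1) and 13.9% (scaffold 12). Up to the last peak of a scaffold their number on the 14 ran from 1.71 per Mb (scaffold 14) to 6.06 per Mb (scaffold 8). Scaffold 2 held the most, 137. Scaffolds 16, 19, 23 and 86 held 1 each, at 0.105, 0.495, 2.71 and 65.7 per Mb. There they made up 4.17%, 6.67%, 12.5% and 20% of few shared regions (24, 15, 8 and 5). The median distance to the nearest other broad region was 61842 bp, and 34 members had another within 1000 bp. The nearest shared region of any width was a median of 6995 bp away, against 6528 bp from narrower regions. Broad regions were therefore mostly isolated from each other, and about as far from other shared regions as narrower ones were.

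The study's design compares animals with and without algae. Peaks covered 468.7 and 898.2 kb of the broad regions in aposymbiotic replicates 1 and 2, and 487.4 and 1020.4 kb in symbiotic replicates 1 and 2. The symbiotic value was 1.04 times the aposymbiotic one in replicate 1 and 1.14 times in replicate 2. Means were 683 ± 304 kb (SD, n = 2) and 754 ± 377 kb (SD, n = 2), a log2 ratio of 0.12. The difference was smaller than the SD of either group, and the log2 ratio turned to -0.35 without aposymbiotic replicate 1 and to -0.41 without symbiotic replicate 2. Peaks of these lists made the width that chose the regions, so covered length is given as a description with no test. Narrower shared regions had ratios of 0.933 and 1.02 in replicates 1 and 2.

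Covered length was recomputed with the width taken from lists other than those measured. In 126 regions that were at least 800 bp wide in the merged replicate 1 lists, the replicate 2 libraries covered 118.7 kb (aposymbiotic) and 129.2 kb (symbiotic), a ratio of 1.09, where the other shared regions gave 1.03. In 949 regions wide in the merged replicate 2 lists, the replicate 1 libraries covered 375.8 and 401.7 kb, a ratio of 1.07, where the others gave 0.933. The direction was the same in both, and each rests on 1 library per condition with no test.

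Summits numbered 2524 and 5838 in aposymbiotic replicates 1 and 2, and 2941 and 5959 in symbiotic replicates 1 and 2. The ratios were 1.17 and 1.02, and the difference was again within the spread of replicates (log2 ratio of 0.13, p = 0.667 in a two-sided exact permutation test over libraries, n = 2). No p below 0.333 is possible with 2 against 2 libraries, and the p measures only the spread between these libraries. Without aposymbiotic replicate 1 the log2 ratio turned to -0.48, and without symbiotic replicate 2 to -0.38. Peaks, by contrast, numbered 1598 and 2021 against 1836 and 1677, so symbiotic replicate 2 covered more bases with fewer, longer peaks. A comparison of peak number therefore ran in opposite directions in the replicates.

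More bases were covered in the symbiotic list of both numbers in 415 broad regions, or 36%, where the share was 24.6% over all shared regions. For the aposymbiotic lists it was 225 regions, or 19.5%, against 29.4%. Covered length is what the rule used, so nothing is read from these counts.

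Rank by fold was not used by the rule, though the list that set more outer starts and ends than any other also ranked the broad regions highest. In 112 broad regions, or 9.71%, both symbiotic ranks lay at least 10 percentile points above both aposymbiotic ranks, and the share over all shared regions was 7.56%. In 42, or 3.64%, both aposymbiotic ranks lay at least 10 points above both symbiotic ranks, where the share over all shared regions was 7.54%. The broad regions thus leaned to the symbiotic side relative to an even background, and no region was tested on its own.

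The lean rested on symbiotic replicate 2. Without that library, 16.9% of broad and 16.3% of all shared regions ranked at least 10 points higher in symbiotic replicate 1 than in both aposymbiotic lists, and 15.9% and 16.9% at least 10 points lower. Without any of the other 3 libraries the symbiotic share stayed above and the aposymbiotic share below that of all shared regions. A grouping by replicate number gave a lean too, since 131 broad regions (11.4%) ranked higher in both replicate 2 lists and 50 (4.33%) in both replicate 1 lists, against 5.86% and 6.25% of all shared regions. In the 552 regions that were wide without symbiotic replicate 2, the median ranks were 53.8, 57.1, 54.5 and 63.1, with symbiotic replicate 2 again highest. Of these 552, 7.97% ranked at least 10 points higher in both symbiotic and 4.17% in both aposymbiotic lists. Over all shared regions the shares were 7.56% and 7.54%. The symbiotic share of the 552 was thus near that of all shared regions, and the aposymbiotic share was below it.

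**Figure D5:**
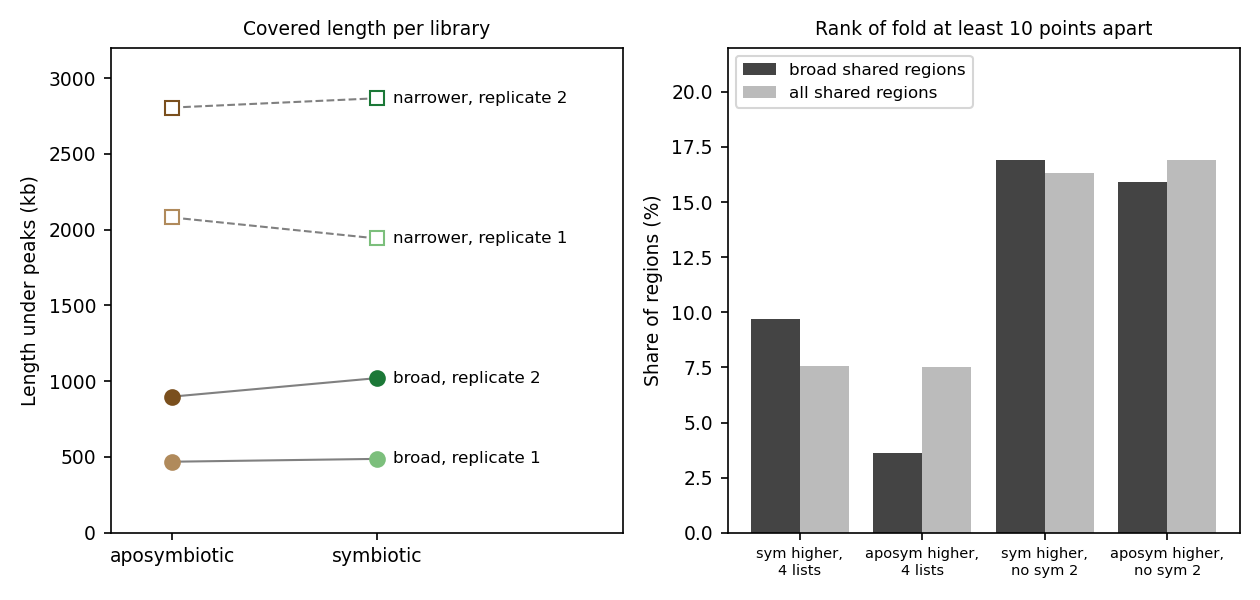
Left, length under peaks (kb) in broad (filled circles) and narrower (open squares) shared regions, with lines joining the libraries of a replicate number; right, share of broad (dark) and of all (light) shared regions whose rank of fold was at least 10 points higher in symbiotic (sym) or aposymbiotic (aposym) lists, with all 4 lists and without symbiotic replicate 2 (sym 2). The lean of 9.71% against 3.64% in broad regions becomes 16.9% against 15.9% without that library.

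The region with the largest gap in rank in favour of symbiotic animals was on scaffold 7 (8975039 to 8975946). Its folds were 2.24 and 2.57 in aposymbiotic replicates 1 and 2, from 25 and 52 tags. In symbiotic replicates 1 and 2 they were 4.57 and 4.89, from 39 and 79 tags. The ranks among shared regions were 7.69 and 29.2 against 74.7 and 81.4, so the groups did not overlap and lay 45.5 points apart. The strongest summit lay 219 and 209 bp from the start in replicate 1 and 204 and 211 bp in replicate 2, aposymbiotic first. The gap thus compares the same place in all 4 lists, and symbiotic replicate 2 alone had a peak over all 908 bp.

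The other 3 of that kind were on scaffold 4 (5826351 to 5827273), scaffold 12 (10025232 to 10026131) and scaffold 2 (15024946 to 15025774). On scaffold 12 the folds were 2.19 and 2.31 in aposymbiotic and 3.64 and 3.97 in symbiotic replicates 1 and 2. Unlike on scaffold 7, in these 3 the strongest summit differed in place between the lists, so their gap compares different positions of a region.

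In the opposite direction, the largest gap was on scaffold 4 (5036999 to 5037886). Its folds were 3.74 and 3.67 in aposymbiotic replicates 1 and 2, from 44 and 82 tags. In symbiotic replicates 1 and 2 they were 2.77 and 2.72, from 25 and 45 tags. The aposymbiotic ranks of 70.8 and 68.4 lay 50.0 points above the higher symbiotic rank. Its strongest summit lay 809, 765, 792 and 136 bp from the start, so symbiotic replicate 2 had its highest point at the other end of the 888 bp. The others were on scaffold 10 (11218454 to 11219654), scaffold 8 (14825515 to 14826650) and scaffold 3 (14264073 to 14265115). On scaffold 10 the folds were 3.75 and 3.84 in aposymbiotic and 2.95 and 2.84 in symbiotic replicates 1 and 2. These 8 regions were chosen by their gap, so their values describe the extremes of 1154 members and are not tested.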

How the data were processed

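Chromatin accessibility was measured in 4 ATAC-seq libraries of whole animals, 2 per condition, grouped by the condition and replicate number in the labels. The submitters' processing notes name MACS3 3.0.4, Bowtie2 2.5.4, Trim Galore 0.6.10 and deepTools. Settings, build and annotation were not given in the sources used. The authors deposited a separate peak list for each library. Each deposited line gives the fold enrichment (a ratio) of a summit, its -log10 p and -log10 q, a score that is a whole-number form of the -log10 q, and the summit's offset. Lines that share start and end were taken as 1 peak, and 10 lines of aposymbiotic replicate 2 gave no summit position.

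Total reads per library are unknown. Tags and background were solved from fold and -log10 p, taking the fold as pileup plus 1 over background plus 1 and the p as a Poisson tail; at least 99.97% of shared regions in each list returned the listed value within 0.001. Tags carry counting error. Folds were ranked within a list and not tested between lists. The only test in the text is an exact permutation over libraries of the number of summits; the one planned for covered length is not reported, since the rule used that length. The named regions were the 8 widest members, the 8 with the highest lowest percentile of fold, the 5 with the most common summit places, the 4 with the largest rank gap in each direction, the 3 on each side of the threshold and 1 typical member. The members and lists were chosen with earlier results of these data known. Alternatives changed the width threshold, the overlap, the q threshold, list length, the rank gap, the summit distance, the ranked measure and the libraries. The replicate numbers were not taken as pairs, since the labels tie them to no shared batch. The procedures were tested on simulated data. Python 3.11.15 was used with numpy 2.4.6, pandas 2.3.3, scipy 1.17.1 and matplotlib 3.10.9.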

Additional observations from a re-analysis of the deposited data

How the results depend on the processing

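The number of broad regions followed the definition. It was 2534 at a width of at least 600 bp, 511 at 1000 bp, 418 with peaks of -log10 q of at least 5, 733 with lists of equal length, 751 when 1 list had to hold a single peak of 800 bp and 165 when each condition had to, against 1050 with at least 50 bp shared. Leaving out 1 library gave 552 (without symbiotic replicate 2) to 1323 (without aposymbiotic replicate 1). The log2 ratio of covered length stayed above 0 under the other settings but ranged from -0.41 (without symbiotic replicate 2) to 0.65 (without symbiotic replicate 1) when a library was left out, and was also below 0 at -0.35 without aposymbiotic replicate 1. For summits the range was -0.48 (without aposymbiotic replicate 1) to 0.73 (without aposymbiotic replicate 2), with -0.38 without symbiotic replicate 2. Without 1 library, conditions are compared over lists of unlike length; the cause of the reversals was not tested. With the replicate block the log2 ratios were 0.12 and 0.13, and for summits the exact sign-flip test over 2 pairs gave p = 0.5, its smallest possible value. The deviations of libraries that share a number correlated at 0.28, which with 2 pairs does not show pairing.

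The share of broad regions that ranked higher in symbiotic lists was 23.5% at any gap, 3.47% at 20 points and 16.9% to 29.5% without 1 library. The share higher in aposymbiotic lists was 13.3%, 1.04% and 10.1% to 15.9% under the same settings. Over all shared regions the symbiotic share was 19.6%, 3.03% and 15.1% to 19.1%. The aposymbiotic share over all shared regions was 19.7%, 3.2% and 14.5% to 19.1%. At 20 points the symbiotic share of broad regions was thus near that of all shared regions. A smaller gap or fewer lists to satisfy raises both shares by construction. The strongest summit lay at the same place in 7.02% of broad regions within 25 bp, and in 15.9% to 19.1% without 1 library. Ranking recovered tags, taking the width from other lists and measuring in the lists that did not set the width were chosen after seeing the data and kept every direction. With the width from lists other than symbiotic replicate 2, however, the symbiotic share of 7.97% was near the 7.56% of all shared regions. Uncalled sites have no listed value, and total reads are unknown.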

Other observations

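The 4 members outside the 14 scaffolds with at least 1000 merged regions were chosen after their values were seen. Not all of these lay on short scaffolds, since the last peak of scaffold 16 was at 9.48 Mb and that of scaffold 14 at 9.34 Mb. The widest was on scaffold 19 (1556286 to 1558307), a region of 2022 bp with folds of 3.25 and 4.05 in the aposymbiotic and of 4.80 and 4.88 in the symbiotic libraries (replicates 1 and 2). It held 3 summit places found in all 4 lists, and 1077 bp of it were under a peak in every list. On scaffold 23 (284208 to 285286), the symbiotic folds of 5.38 and 6.16 were above the aposymbiotic folds of 3.37 and 2.88, and the ranks lay 20.2 points apart. The others were on scaffold 86 (12811 to 14356) and scaffold 16 (3205972 to 3206795).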
